A study of Mus musculus with 4 samples.

Results

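The genes described here are nuclear-encoded genes of the respiratory chain and of ATP synthase, nearly all of them subunits. They were chosen by symbol from the gene column of the count tables, as all names beginning with Nduf followed by a subunit letter and number, Ndufab1, Sdha to Sdhd, and all names beginning with Uqcr, Cox4 to Cox8 or Atp5, with hyphenated names left out. The rule found 84 of the 32285 genes, 37 in complex I, 4 in complex II, 8 in complex III, 18 in complex IV and 17 in complex V. All 84 were present in the GENCODE M21 annotation of the mouse genome build GRCm38. The rule leaves out Cyc1, the cytochrome c1 subunit of complex III, whose name does not begin with these letters and which is counted below with the genes around the chain. The inhibitor of the ATP synthase that newer annotations name Atp5if1 was not among the symbols of the table and was not analysed here.

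Complexes I and II pass electrons from NADH and succinate into the chain, complex III hands them to cytochrome c, and complex IV gives them to oxygen. The proton gradient built on the way drives complex V, the ATP synthase. In pancreatic β cells the ATP made from glucose closes potassium channels in the plasma membrane and so starts insulin secretion, and the other islet cells use the same machinery with other hormones as their product. A few subunits are encoded in mitochondrial DNA, and these are given beside the nuclear genes where they moved differently.

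Single cells from the pancreatic islets of male mice were profiled by droplet 3′ RNA sequencing in 4 groups of 1 library each. Pax4 WT and Pax4 HH mice were either 12 weeks old and fed standard chow (SCD), or 16 weeks old and fed a high-fat diet for the last 4 weeks (HFD). HH mice were homozygous for an arginine-to-histidine substitution in the endogenous Pax4 allele, present in all their cells, and WT littermates served as controls. Each library held the pooled islets of 2 to 3 mice, so differences between genotypes or diets are given without a replicate check or a test, and diet and age cannot be told apart. Pax4 had 0 UMIs in the hormone-dominant cells of all 4 libraries (a count of 0 allows up to 3), so its counts do not check the genotype labels.

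The 4 libraries held 68011082 to 104810105 UMIs (unique molecular identifiers, each marking 1 captured transcript) over 4665 to 7123 barcodes. After filtering, 1999 to 4231 cells per library were used. In the WT HFD library 38.3% of the barcodes passed the filter, against 61.6% to 67.8% in the other libraries. Barcodes found in more than 1 library numbered 50, and 13 of them were found among the used cells of more than 1 library. Cells were grouped by their dominant hormone. A cell was assigned to insulin, glucagon, somatostatin or pancreatic polypeptide (PP) when these hormones made up at least 10% of its UMIs and 1 of them at least 60% of the hormone UMIs. Insulin-dominant cells numbered 2029 in WT and 1987 in HH on SCD, and 1138 in WT and 2886 in HH on HFD. Glucagon-dominant cells numbered 275 to 462 per library, somatostatin-dominant cells 155 to 324 and PP-dominant cells 70 to 192. With the 4 hormones' own genes left out, the summed β, α, δ and PP markers were each highest in the group of their own hormone in every library. Cells under the 10% limit, 151 to 376 per library, carried endothelial, macrophage and stromal markers in every library. In HH HFD their lymphocyte markers, nearly all Igkc, were at 15947 CPM, above the endothelial markers at 7333. On SCD they also held pan-endocrine markers, at 3072 CPM in WT and 4527 in HH, and ductal markers, at 1429.6 and 1252.5.

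In insulin-dominant cells the 84 genes together took a median of 0.932% of a cell's UMIs in WT and 0.952% in HH on SCD, and of 0.869% in WT and 0.947% in HH on HFD. The share was higher in glucagon-dominant cells, with medians of 1.21% to 1.36%, and in somatostatin-dominant cells, with medians of 1.42% to 1.52%. PP-dominant cells lay between, at 1.03% to 1.12%. Insulin-dominant cells moved from the lowest to the highest share when the hormone and mitochondrially encoded genes were left out of the denominator. Insulin alone made up 54.4% to 55.8% of all UMIs in insulin-dominant cells. Without these genes, the medians were 2.49% to 2.76% in insulin-dominant cells, 2.08% to 2.25% in glucagon-dominant cells, 2.03% to 2.27% in somatostatin-dominant cells and 2.19% to 2.50% in PP-dominant cells. Insulin-dominant cells were then highest in each of the 4 libraries. Whether a hormone group had more or less respiratory chain mRNA therefore depended on the denominator, and single genes are compared below relative to the other genes of the same cells.

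**Figure D1:**
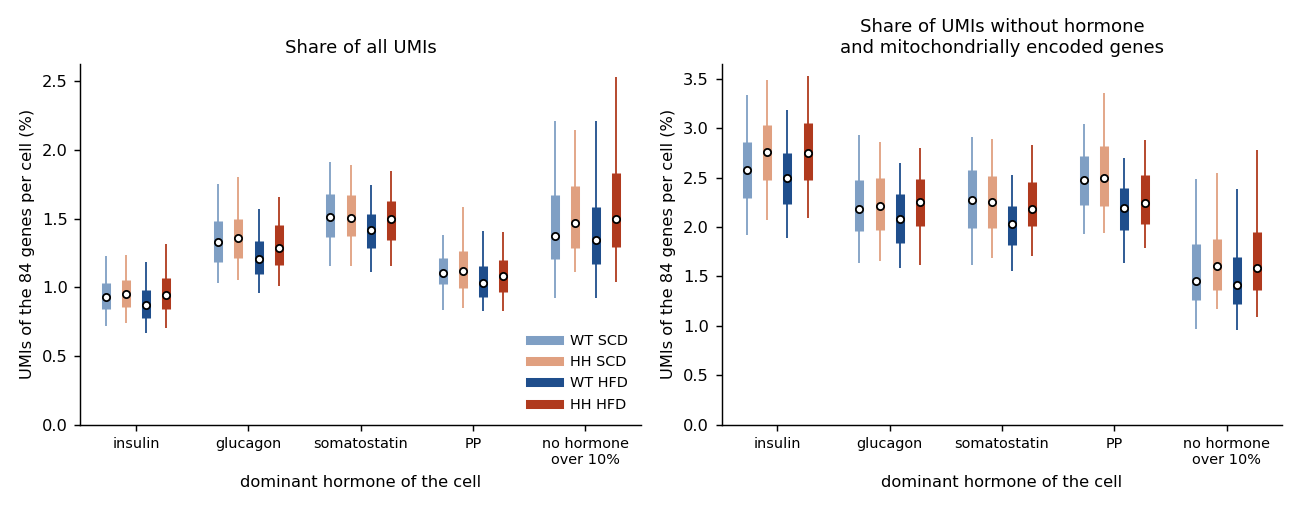
UMIs of the 84 genes as a percentage of each cell's UMIs (y axes), by dominant hormone (x axes) and library (colours), with all UMIs as denominator on the left and without hormone and mitochondrially encoded genes on the right; points are medians, thick bars the 25th to 75th percentile and thin lines the 5th to 95th percentile. Insulin-dominant cells are lowest on the left (medians 0.869% to 0.952%) and highest on the right (2.49% to 2.76%).

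By complex, the summed UMIs in insulin-dominant cells were 0.340% to 0.370% of all UMIs for complex I, 0.0219% to 0.0232% for complex II, 0.0771% to 0.0934% for complex III, 0.196% to 0.222% for complex IV and 0.263% to 0.291% for complex V. The ranges are those of the 4 libraries. In the next sentences levels are UMIs per 1000000 UMIs of insulin-dominant cells (CPM), in the order WT and HH on SCD, then WT and HH on HFD. Since 3′ libraries tag each transcript once at its end, these levels are not divided by transcript length. The gene with the highest mean level over the 4 libraries in complex II was Sdha, the flavoprotein that oxidises succinate, at 72.0, 64.0, 57.9 and 50.8 CPM. Its level was lower in each HFD library than in either SCD library, and on HFD Sdhc was above it, at 62.1 and 59.1 CPM. In complex III it was Uqcrq, a small membrane subunit, at 186, 202, 156 and 198 CPM. In complex IV it was Cox8a, the smallest subunit, at 381, 378, 295 and 332 CPM, level with Cox4i1 on HFD (295 and 328 CPM). In complex V it was Atp5l, a subunit of the membrane part, at 327, 318, 240 and 255 CPM. On HFD Atp5b, the catalytic β subunit, was above Atp5l, at 269 and 268 CPM, and so was Atp5g1 in HH, at 282 CPM. For Cox8a and Atp5l both SCD libraries were above both HFD libraries.

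Several tissue-specific isoforms were near 0 in hormone-dominant cells. Cox7b2, Cox8b and Cox8c had 0 to 4 UMIs per library in insulin-dominant cells, and Cox4i2, Cox6b2 and Cox7a1 were at most at 0.557 CPM there. Cox7a1 and Cox8b are known as muscle isoforms. The ubiquitous counterparts were far above them, with Cox4i1 at 271 to 328 CPM, Cox6b1 at 117 to 136 CPM and Cox7a2 at 111 to 148 CPM. Cox6a2 was the exception among the isoforms known from heart and skeletal muscle, and it was abundant in insulin-dominant cells (below).

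The start regions of a few members are shown for orientation, with matches to motifs known from nuclear genes of the respiratory chain in capitals. Start regions in the RefSeq table for GRCm38.p6 (250 bases before to 50 bases after the transcript start) were matched for 69 of the 84 members. The motifs searched on both strands were the core of the NRF1 site (CGCATGCG), the ETS core bound by GABPA (CCGGAAG), the core of the YY1 site (AAGATGG) and the GC box (GGGCGG), and overlapping matches were each counted. The NRF1 core was found in 9 of 69 members (13%) and in 2.77% of 17492 protein-coding genes. The ETS core was found in 17 members (24.6%) and 12.9% of genes, the YY1 core in 11 members (15.9%) and 7.18% of genes, and the GC box in 29 members (42.0%) and 49.2% of genes. A match is a description of these letters and not a binding site. Cox6a1, the ubiquitous paralogue of Cox6a2, held an NRF1 core, an ETS core and GC boxes (chr5:115348909-115349208, minus strand). Atp5g1, past the fold limit in both diets (below), held none of these motifs (chr11:96075582-96075881, minus strand). Ndufa1, with the highest ratio of HH to WT on HFD, held 1 GC box (chrX:37191189-37191488, minus strand), and so did Ndufa6, higher in the other hormone groups than in insulin-dominant cells (chr15:82354242-82354541, minus strand).
Cox6a1: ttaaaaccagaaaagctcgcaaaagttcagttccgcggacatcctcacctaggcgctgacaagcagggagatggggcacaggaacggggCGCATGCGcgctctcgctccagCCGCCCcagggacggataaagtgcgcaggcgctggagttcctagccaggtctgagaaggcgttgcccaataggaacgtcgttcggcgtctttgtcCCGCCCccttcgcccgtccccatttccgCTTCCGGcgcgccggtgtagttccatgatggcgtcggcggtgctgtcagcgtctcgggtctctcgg
Atp5g1: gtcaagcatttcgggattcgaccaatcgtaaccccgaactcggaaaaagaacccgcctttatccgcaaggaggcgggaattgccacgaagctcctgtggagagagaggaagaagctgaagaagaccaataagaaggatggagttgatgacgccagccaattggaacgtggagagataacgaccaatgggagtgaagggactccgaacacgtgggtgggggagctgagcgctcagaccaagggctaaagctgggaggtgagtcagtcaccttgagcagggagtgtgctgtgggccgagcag
Ndufa1: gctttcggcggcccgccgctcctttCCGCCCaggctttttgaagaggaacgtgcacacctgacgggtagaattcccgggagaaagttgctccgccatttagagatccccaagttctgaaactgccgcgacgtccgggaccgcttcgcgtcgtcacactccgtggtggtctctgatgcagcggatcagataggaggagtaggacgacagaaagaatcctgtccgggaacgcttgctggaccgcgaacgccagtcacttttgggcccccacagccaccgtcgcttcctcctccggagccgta
Ndufa6: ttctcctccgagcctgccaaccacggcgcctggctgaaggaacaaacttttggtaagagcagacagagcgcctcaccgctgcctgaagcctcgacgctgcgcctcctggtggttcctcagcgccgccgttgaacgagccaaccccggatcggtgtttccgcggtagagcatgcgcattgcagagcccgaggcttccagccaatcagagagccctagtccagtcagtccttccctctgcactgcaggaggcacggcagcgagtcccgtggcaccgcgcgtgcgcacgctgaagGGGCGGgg

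To compare hormone groups, UMIs were summed per library and group, and glucagon-, somatostatin- and PP-dominant cells were each tested against insulin-dominant cells across the 4 libraries with edgeR's quasi-likelihood test. The test was fitted to all genes with library as a block, and a gene was called at a Benjamini-Hochberg adjusted p under 0.05. Of the 84 members 78 passed the filter on low counts, and the 6 that did not were Cox4i2, Cox6b2, Cox7a1, Cox7b2, Cox8b and Cox8c. The 3 contrasts share the insulin-dominant sums, so their values stand side by side and are not independent.

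In glucagon-dominant cells 17 of 78 members were called higher (21.8%, beside 29.2% of all 11646 genes tested) and 28 lower (35.9%, beside 31.6%). In somatostatin-dominant cells 2 were called higher (2.56%, beside 29.5%) and 41 lower (52.6%, beside 30.5%). In PP-dominant cells 15 were called higher (19.2%, beside 24.7%) and 29 lower (37.2%, beside 27.9%). The median log2 fold change of the 78 members was -0.08 for glucagon, -0.25 for somatostatin and -0.08 for PP, and that of all genes -0.01, -0.01 and -0.03. These values rest on edgeR's TMM scaling, which centres a trimmed mean of the genes' log ratios near 0. Scaled to all UMIs without TMM, 64 of the 78 members were called higher and 5 lower for glucagon, beside 66.7% and 11.2% of all genes. On that scale 74 were higher and 3 lower for somatostatin, beside 82.1% and 5.76%, and 47 and 9 for PP, beside 42.6% and 14.6%. The members' medians were then 0.52, 0.73 and 0.24, beside 0.58, 0.96 and 0.29 for all genes. Scaled to sums without hormone and mitochondrially encoded genes, 8 members were higher and 49 lower for glucagon, beside 20.3% and 40.1% of all genes. There 7 were higher and 41 lower for somatostatin, beside 30.9% and 28.3%, and 13 and 35 for PP, beside 21.8% and 30.9%. Without the HH HFD library, on the TMM scale, 5 were higher and 39 lower for somatostatin, beside 28.4% and 29.2% of all genes. For PP 25 were then higher and 23 lower, beside 22.4% and 25.2%, and the members' median (-0.02) was then above that of all genes (-0.04).

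By complex and on the TMM scale, the called members of complex I were mostly lower, 17 lower and 6 higher of 37 for glucagon, 18 and 1 for somatostatin, and 15 and 7 for PP. Of the 17 members of complex V, 1 was lower and 6 were higher for glucagon, 9 and 0 for somatostatin, and 4 and 4 for PP. In complex IV 12 members were tested, with 5 lower and 2 higher for glucagon, 8 and 0 for somatostatin, and 5 and 1 for PP. Scaled to all UMIs, where 66.7%, 82.1% and 42.6% of all genes were called higher, most called members of these complexes were higher as well. In complex I 28 were then higher and 1 lower for glucagon, 36 and 1 for somatostatin, and 21 and 3 for PP. In complex V 16 were higher and 1 lower, 16 and 0, and 13 and 1, and in complex IV 10 and 2, 11 and 1, and 6 and 3.

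**Figure D2:**
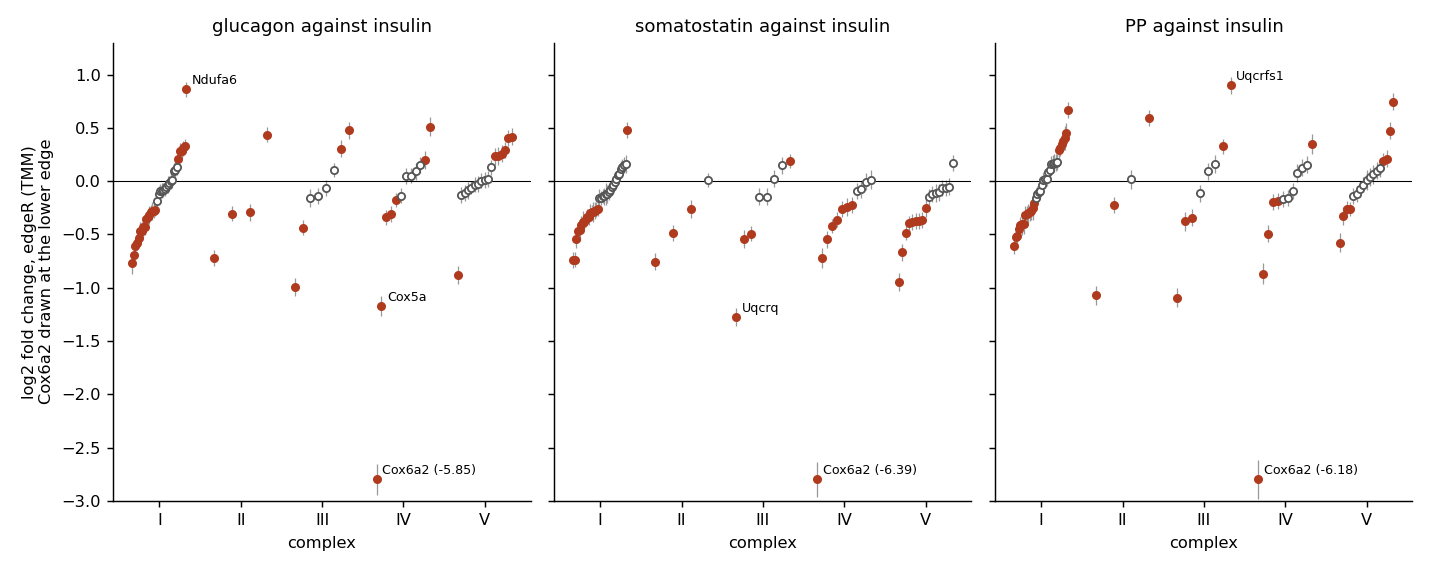
Log2 fold change (y axis, TMM scale) of each tested member in glucagon-, somatostatin- and PP-dominant cells against insulin-dominant cells, by complex (x axis), from sums of 4 libraries; filled points passed the edgeR test, open points did not, bars are standard errors and points within a complex are ordered by value. Cox6a2, drawn at the lower edge with its value, lies apart from the other members drawn in all 3 panels, and 1 member is not drawn.

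Cox6a2 had the largest difference between hormone groups. It encodes the heart and muscle isoform of subunit VIa of cytochrome c oxidase and lies at chr7:128205435-128206387 on the minus strand, where its exons overlap exons of Itgad on the other strand. Whether the counting used strand is not given in the sources used here. Its level in insulin-dominant cells was 256 CPM in WT and 220 in HH on SCD, and 250 in WT and 134 in HH on HFD. In glucagon-dominant cells it was 3.88 to 6.85 CPM, in somatostatin-dominant cells 3.58 to 6.26 CPM and in PP-dominant cells 1.23 to 5.50 CPM, from 2 to 34 UMIs per library. The groups did not overlap in any library. The log2 fold change was -5.85 ± 0.15 (SE) for glucagon, -6.39 ± 0.17 for somatostatin and -6.18 ± 0.18 for PP (edgeR adjusted p of 6.9e-18, 1.5e-17 and 2.3e-16). Per 1000000 insulin UMIs, Cox6a2 was at 245 to 470 in insulin-dominant cells and at 188 to 615 in the other hormone groups, ranges that overlap. In glucagon-dominant cells this value was 510 against 470 in insulin-dominant cells of WT SCD, 530 against 393 of HH SCD, 615 against 453 of WT HFD and 381 against 245 of HH HFD, and each counting interval held the insulin-dominant value of its library. In somatostatin-dominant cells the interval lay below that value in WT SCD (120 to 405) and above it in HH HFD (259 to 794). The cells of WT HFD under the hormone limit held 51 Cox6a2 UMIs, at 1157 (861 to 1521), above the 453 of their insulin-dominant cells. Whether the few UMIs outside insulin-dominant cells came from free RNA was not tested.

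Cox6a1, the isoform of most other tissues, was present in all groups. Its level in insulin-dominant cells was 102, 102, 90.7 and 93.4 CPM in the order above. On the TMM scale it was 0.17 ± 0.07 (SE, log2) below insulin-dominant cells in glucagon-dominant cells, 0.42 ± 0.07 below in somatostatin-dominant cells and 0.19 ± 0.07 below in PP-dominant cells (edgeR adjusted p of 0.031, 2.5e-05 and 0.035). Without the HH SCD, WT HFD or HH HFD library the glucagon value missed the threshold (adjusted p of 0.11, 0.094 and 0.14), and so did the PP value (0.13, 0.083 and 0.10). Scaled to all UMIs these turned to 0.42, 0.55 and 0.14 above insulin-dominant cells. Of the UMIs of both paralogues, Cox6a2 made up 71.6% in WT (95% Clopper-Pearson interval 70.95% to 72.2%) and 68.25% in HH on SCD, and 73.4% in WT and 58.98% in HH (58.2% to 59.7%) on HFD, all in insulin-dominant cells. Its share in the other hormone groups was 1.16% to 4.87%. Intervals here and below cover counting error only.

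**Figure D3:**
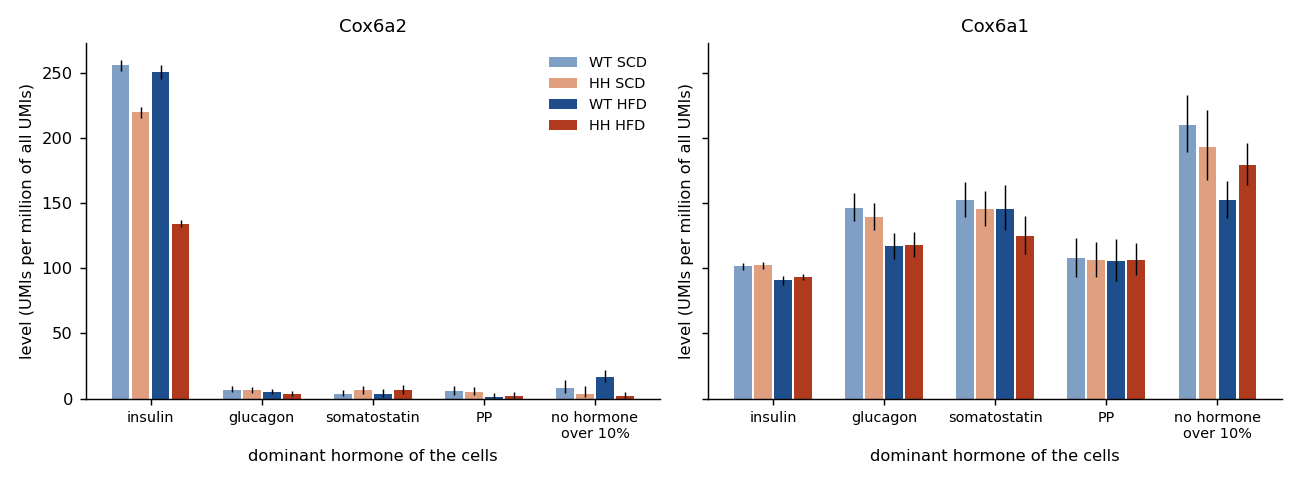
Levels (y axes, UMIs per 1000000 UMIs) of Cox6a2 on the left and Cox6a1 on the right by dominant hormone of the cells (x axes) and library (colours); bars are the level of each summed group and lines its exact 95% Poisson interval. Cox6a2 stands at 134 to 256 in insulin-dominant cells and at most at 16.8 in all other groups, while Cox6a1 is present in every group.

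Other members were lower outside insulin-dominant cells by smaller amounts. Uqcrq fell by 0.99 ± 0.08 (SE, log2), 1.28 ± 0.08 and 1.09 ± 0.09 in glucagon-, somatostatin- and PP-dominant cells (edgeR adjusted p of 1.6e-09, 5.0e-11 and 1.7e-09), and scaled to all UMIs it was at -0.39, -0.30 and -0.77. Cox5a, a subunit that binds the core of complex IV, fell by 1.17 ± 0.09, 0.72 ± 0.09 and 0.87 ± 0.10 (edgeR adjusted p of 6.9e-10, 1.1e-06 and 4.9e-07). On the scale of all UMIs, Cox5a in somatostatin-dominant cells was at 81.8 to 92.1 CPM, above the 69.3 to 78.2 CPM of insulin-dominant cells. Sdhc, a membrane anchor of complex II, fell by 0.72, 0.76 and 1.07, with standard errors of 0.07, 0.08 and 0.09, and scaled to all UMIs it was at -0.13, 0.22 and -0.75.

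Ndufa6, an accessory subunit of complex I, was called higher in each of the other hormone groups. Its level in insulin-dominant cells was 67.0 to 90.1 CPM, against 178 to 255 in glucagon-dominant, 180 to 249 in somatostatin-dominant and 133 to 189 in PP-dominant cells, with no overlap. The log2 fold change was 0.86 ± 0.07 (SE), 0.48 ± 0.07 and 0.66 ± 0.07 (edgeR adjusted p of 1.4e-09, 8.1e-06 and 2.3e-07). Uqcrfs1, the Rieske iron-sulphur protein of complex III, rose by 0.48 ± 0.08 in glucagon-dominant and 0.90 ± 0.08 in PP-dominant cells (edgeR adjusted p of 2.3e-05 and 1.4e-08). In somatostatin-dominant cells its value was 0.15 ± 0.08 (edgeR adjusted p of 0.12, and 0.014 without the HH HFD library). Atp5c1, the γ subunit in the central stalk of ATP synthase, rose by 0.75 ± 0.08 in PP-dominant cells (edgeR adjusted p of 8.4e-08) and by 0.41 ± 0.08 in glucagon-dominant cells. Cox7c, a small subunit of complex IV, rose by 0.51 ± 0.09 in glucagon-dominant cells (edgeR adjusted p of 3.7e-05). In somatostatin-dominant cells the only other member called higher was Uqcrc2, a core protein of complex III, at 0.19 ± 0.07 (edgeR adjusted p of 0.018), and without the WT SCD, HH SCD or WT HFD library it missed the threshold, with adjusted p of 0.079, 0.061 and 0.067. The called member next to them there, Cox7b, fell by 0.22 ± 0.07 (edgeR adjusted p of 0.012, and 0.050 and 0.099 without the WT HFD and the HH HFD library), and scaled to all UMIs it was higher, at 0.75.

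The membrane anchors of complex II moved differently. Sdhd, which pairs with Sdhc in the membrane, rose by 0.44 ± 0.07 in glucagon-dominant and 0.59 ± 0.08 in PP-dominant cells and fell by 0.49 ± 0.08 in somatostatin-dominant cells (edgeR adjusted p of 1.8e-05, 1.5e-06 and 1.3e-05). Scaled to all UMIs Sdhd was above insulin-dominant cells in somatostatin-dominant cells too, at 0.48. The paralogues Atp5g1, Atp5g2 and Atp5g3, which encode the same mature c subunit of the ATP synthase rotor, also differed. Of their summed UMIs, Atp5g1 made up 42.2% to 46.2% in insulin-dominant cells, 25.03% to 26.4% in glucagon-dominant, 28.6% to 30.9% in somatostatin-dominant and 27.55% to 30.4% in PP-dominant cells. The share of Atp5g2 was 36.6% to 40.2% in insulin-dominant and 48.0% to 56.9% in the other hormone groups. The share of Atp5g3 was 17.2% to 18.3% in insulin-dominant and 17.3% to 22.6% in the others. Shares within a paralogue set do not depend on the denominator. On the TMM scale Atp5g1 fell by 0.88 ± 0.09, 0.95 ± 0.09 and 0.58 ± 0.09 (edgeR adjusted p of 2.1e-08, 8.9e-09 and 1.5e-05), and scaled to all UMIs its values were -0.28, 0.03 and -0.25.

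The genes around the chain gave the following counts in the same fit, on lists written with earlier results of these data known. They stand beside the shares of all genes called higher and lower, 29.2% and 31.6% for glucagon, 29.5% and 30.5% for somatostatin, and 24.7% and 27.9% for PP. Of 45 assembly factors 5 were higher and 15 lower for glucagon, 4 and 14 for somatostatin, and 6 and 8 for PP. Of 19 genes of the citric acid cycle and pyruvate entry 2 were higher and 8 lower for glucagon, 2 and 9 for somatostatin, and 2 and 7 for PP. Of 75 mitochondrial ribosomal proteins 15 were higher and 28 lower, 11 and 28, and 12 and 12. Of 10 other tested genes of the chain and the inner membrane that the symbol rule leaves out (Cyc1, Cycs, Etfa, Etfb, Etfdh, Gpd2, Slc25a3, Slc25a4, Slc25a5 and Ucp2), 3 were higher and 4 lower, 2 and 5, and 3 and 4. Cyc1 was among those called lower in all 3, at -0.62, -0.48 and -0.62. Of 10 regulators of mitochondrial biogenesis 2 were higher and 2 lower for glucagon, 0 and 1 for somatostatin, and 0 and 1 for PP. Of the 13 subunits encoded in mitochondrial DNA, 13, 12 and 12 were called lower in glucagon-, somatostatin- and PP-dominant cells, with medians of -0.63, -1.42 and -0.88, on the TMM scale. As a share of all UMIs they were slightly higher in glucagon- than in insulin-dominant cells in WT SCD (5.56% against 5.45%), HH SCD (5.44% against 5.23%) and HH HFD (4.08% against 4.07%), and lower in WT HFD (4.02% against 5.001%). In somatostatin- and PP-dominant cells that share was lower than in insulin-dominant cells in every library. Of 81 cytoplasmic ribosomal proteins, 79, 45 and 67 were called higher and 0, 8 and 2 lower, with medians of 0.94, 0.24 and 0.46.

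Levels in insulin-dominant cells were also compared as ratios of the HH to the WT library within each diet, with exact 95% intervals for counting error. On SCD the summed UMIs of the 84 genes gave a log2 ratio of 0.03 (0.02 to 0.04), and the median of the 68 members with a mean of at least 50 CPM was 0.03, beside -0.04 over all 1400 genes of that level. On HFD the summed ratio was 0.12 (0.11 to 0.13), and the median of 69 members was 0.14, beside -0.03 over 1302 genes. Of these 69, 58 were above 0, 47 with their interval, and 11 below 0, 7 with their interval. Over all 1302 genes, 35.1% had an interval above 0 and 45.1% an interval below 0. Without hormone and mitochondrially encoded genes in the denominator the medians were 0.09 on SCD (all genes 0.02) and 0.16 on HFD (all genes -0.01).

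By complex on SCD, the log2 ratio was 0.06 (0.05 to 0.07) for complex I, 0.07 (0.05 to 0.09) for complex III and 0.04 (0.03 to 0.05) for complex V. Complexes II and IV were at -0.04 each, and both turned positive, to 0.020 and 0.017, without hormone and mitochondrially encoded genes. On HFD the ratio was 0.12 (0.11 to 0.13) for complex I, -0.04 (-0.077 to 0.0018) for complex II, 0.23 (0.21 to 0.25) for complex III, 0.06 (0.04 to 0.07) for complex IV and 0.15 (0.13 to 0.16) for complex V. Without Cox6a2 the HFD ratio of complex IV was 0.15. The differences between complexes were not tested.

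**Figure D4:**
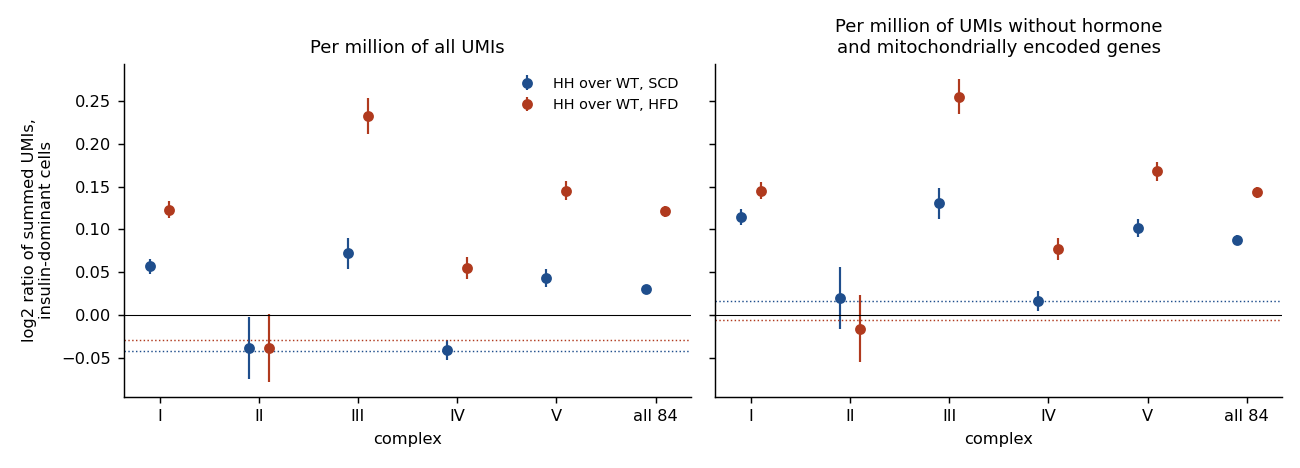
Log2 ratio of HH to WT (y axis) of the summed UMIs of each complex and of all 84 genes (x axis) in insulin-dominant cells, on SCD in blue and HFD in red, scaled to all UMIs on the left and to UMIs without hormone and mitochondrially encoded genes on the right; lines are exact 95% counting intervals and dotted lines the median of all genes of at least 50 CPM. Complex III on HFD has the highest ratio (0.23 on the left), and complex II stays near 0.

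A log2 ratio of at least 0.25 on SCD was reached by 1 of 68 members (1.47%), beside 1.14% of all genes, and -0.25 by 0 members, beside 2.57%. On HFD 13 of 69 (18.8%) were at or above 0.25, beside 13.1% of all genes, and 1 (1.45%) was at or below -0.25, beside 16.1%. The 13 were Ndufa1, Ndufa4, Ndufb6, Ndufc2, Uqcrb, Uqcrh, Uqcrq, Cox7a2, Cox7b, Cox7c, Atp5f1, Atp5g1 and Atp5md. All but Ndufa1 were under 0.5. Without hormone, mitochondrially encoded and ribosomal protein genes in the denominator, 20 of 69 were at or above 0.25, beside 18.1% of all genes.

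The member below -0.25 on HFD was Cox6a2, with 8536 UMIs (250 CPM) in WT and 9645 UMIs (134 CPM) in HH. Its log2 ratio was -0.90 (-0.94 to -0.855), with values of -0.992 to -0.825 over all scalings and cell filters tried. On SCD it was also the lowest of the 68 members, at -0.22 (-0.26 to -0.18), from 256 CPM in WT and 220 CPM in HH. After each cell was thinned to 10000 UMIs, 56.3% of insulin-dominant cells held a Cox6a2 UMI in HH HFD (95% Clopper-Pearson interval 54.4% to 58.1%). The share was 75.8% in WT HFD (73.2% to 78.3%), 74.9% in HH SCD and 77.4% in WT SCD. These intervals take the cells of 1 library as independent and do not cover the spread between libraries. The thinning left out 3 to 17 insulin-dominant cells per library, and the shares before it were 72.3%, 88.4%, 87.4% and 88.2%, at median depths of 24178 to 29863 UMIs. In glucagon-dominant cells the thinned shares were 2.99% to 6.37%, at median depths of 10048 to 16005 UMIs, and the shares before it 3.9% to 7.95%. There the thinning left out many more, 76 of 390 cells in WT SCD, 147 of 446 in HH SCD, 26 of 275 in WT HFD and 228 of 462 in HH HFD. Cox6a1 did not follow. It was at 93.4 CPM in HH HFD and 90.7 CPM in WT HFD, a log2 ratio of 0.04 (-0.02 to 0.11), with thinned shares of 59.8% and 59.7% of cells.

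The next lowest members were close to 0. On HFD Sdha had a log2 ratio of -0.19 (-0.27 to -0.11), from 57.9 CPM in WT and 50.8 in HH. Ndufs7, a core iron-sulphur subunit, was at -0.11, Ndufv1, the subunit that binds NADH, at -0.10, and Cox7a2l, a factor that joins complexes into supercomplexes, at -0.09 (-0.13 to -0.06). On SCD Cox7a2l was at -0.19 (-0.22 to -0.16), Sdha at -0.17 (-0.24 to -0.10), Ndufa6 at -0.09 and Atp5mpl, a small membrane subunit of ATP synthase, at -0.08. Sdha and Cox7a2l were thus among the 5 lowest in both diets.

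The highest ratio on HFD was that of Ndufa1, an X-linked accessory subunit needed to assemble complex I, with 84.7 CPM in WT against 126 in HH, or 0.58 (0.51 to 0.64). The SCD libraries lay between, with 105 CPM in WT against 112 in HH. Ndufa4, first described in complex I and later found with complex IV, had 143 CPM in WT against 194 in HH, or 0.43 (0.39 to 0.48). Ndufc2 followed with 0.40 (0.35 to 0.45), Ndufb6 with 0.35 (0.27 to 0.44) and Uqcrq with 0.35 (0.30 to 0.39). Ndufc2 and Ndufb6 are accessory subunits of the membrane arm of complex I. On SCD the highest ratio was that of Atp5g1, with 219 CPM in WT against 261 in HH, or 0.26 (0.22 to 0.29). It was at 224 and 282 CPM on HFD, or 0.33 (0.29 to 0.37), so both HH libraries were above both WT libraries. Ndufc2 at 0.18, Ndufs3 at 0.17 and Ndufa4 at 0.16 were also among the 5 highest on SCD.

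**Figure D5:**
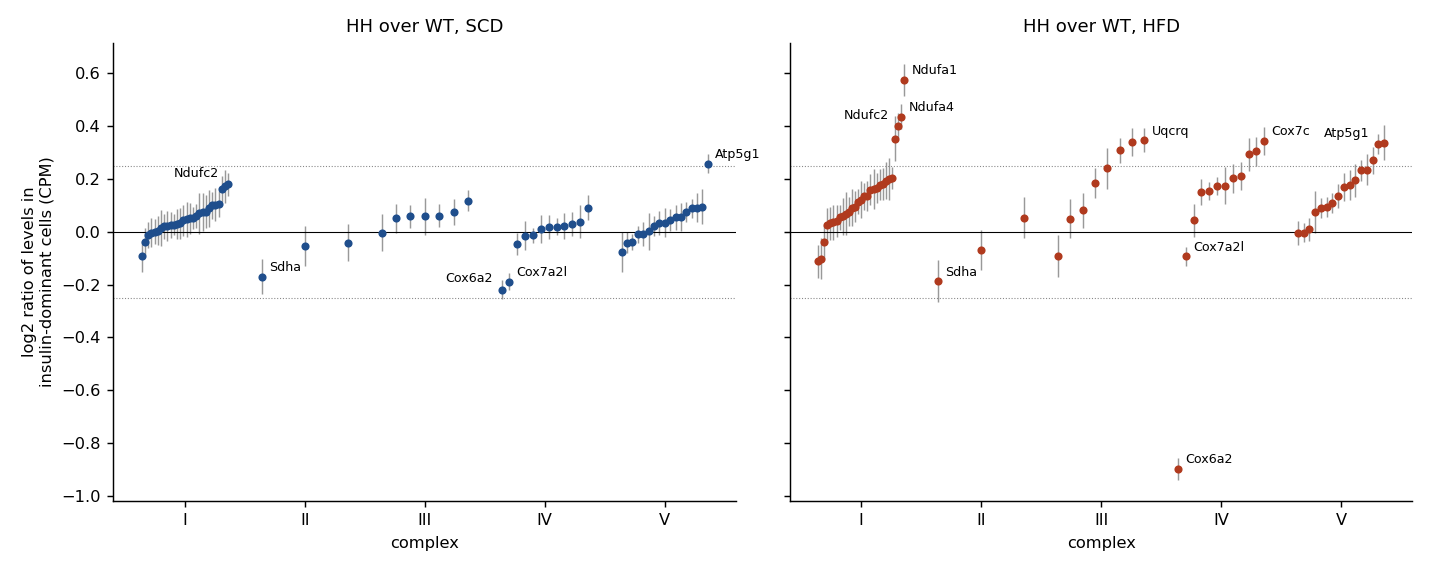
Log2 ratio of HH to WT (y axis, CPM in insulin-dominant cells) of the members with a mean of at least 50 CPM, by complex (x axis), on SCD and HFD, with 1 member not drawn; lines are exact 95% counting intervals, dotted lines mark 0.25 and -0.25, and points within a complex are ordered by value. Most HFD points lie above 0, and Cox6a2 lies apart at -0.90.

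Other measures moved with the HFD ratios. In the same cells the median log2 ratio of 80 cytoplasmic ribosomal protein genes was 0.26 on HFD and -0.03 on SCD. The 11 mitochondrially encoded subunits of at least 50 CPM all fell on HFD, with a median of -0.30, and were at -0.07 on SCD. Their summed share of UMIs was 5.45% in WT and 5.23% in HH on SCD, and 5.001% in WT and 4.07% in HH on HFD. The medians of the nuclear and the mitochondrially encoded subunits thus had opposite signs on HFD, also without hormone genes in the denominator (0.16 and -0.28). Restricted to cells with under 5% mitochondrial UMIs, the summed HFD ratio of the 84 genes was 0.10. The summed α markers in insulin-dominant cells were 1731 CPM in WT HFD and 3519 CPM in HH HFD (1809 and 1990 CPM on SCD), and the PP markers 500 and 1337 CPM. Insulin made up at least 95% of the hormone UMIs in 1134 of 1138 insulin-dominant cells of WT HFD and 2843 of 2886 of HH HFD. In these cells alone the summed ratio of the 84 genes was 0.12 and that of Cox6a2 -0.90. With so few cells left out these values could hardly move, and the part of the α and PP markers was not tested. The part of the ribosomal and mitochondrial shifts was not tested.

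For related lists, HFD medians in insulin-dominant cells were taken over genes of at least 50 CPM. They were 0.07 over 5 assembly factors and 0.08 over 6 genes of the chain and inner membrane outside the symbol rule. They were -0.09 over 6 genes of the citric acid cycle and pyruvate entry, and 0.09 over 8 mitochondrial ribosomal proteins. The 5 assembly factors do not stand for all 45. Most of those under 50 CPM were below 0, such as Sdhaf1 at -0.349 and Ndufaf3 at -0.296. Others were above 0, such as Surf1 at 0.139 and Ndufaf2 at 0.253. No regulator of mitochondrial biogenesis reached that level. Below it, Ppargc1a (-0.58), Ppargc1b (-0.846), Pprc1 (-0.64) and Yy1 (-0.202) had HFD intervals below 0. The intervals of the other listed regulators crossed 0. Apart from Yy1, these 4 genes had low counts, at most at 5.599 CPM on HFD.

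In the other hormone groups the summed HFD ratio of the 84 genes was 0.10 (0.08 to 0.11) in glucagon-dominant, 0.09 (0.07 to 0.11) in somatostatin-dominant and 0.06 (0.03 to 0.08) in PP-dominant cells. On SCD it was 0.02, -0.01 and 0.05. These ratios are scaled to all UMIs. Without hormone and mitochondrially encoded genes, the HFD shares in WT and HH were 2.11% and 2.24% for glucagon, 2.03% and 2.23% for somatostatin, and 2.17% and 2.27% for PP. On SCD these shares were 2.230% and 2.241%, 2.275% and 2.261%, and 2.489% and 2.520%. The glucagon- and PP-dominant cells of HH HFD also held 1664 and 3026 CPM of lymphocyte markers, against 7.4 and 20.9 CPM in WT HFD. Nearly all of this was the immunoglobulin gene Igkc, at 1659 and 2995 CPM, and Cd3e was at 0 CPM in both groups. The part of these transcripts in the ratios was not tested.

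Between diets within a genotype, which share libraries with the ratios above, the summed log2 ratio of HFD to SCD in insulin-dominant cells was -0.08 in WT and 0.01 in HH. Without hormone and mitochondrially encoded genes the WT value was -0.05. The WT HFD library thus had the lowest summed share of the 84 genes of all 4 libraries on both denominators.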

How the data were processed

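Islets of male mice (1 library per group, islets of 2 to 3 mice pooled) had been sequenced with droplet 3′ chemistry. The deposited values are raw UMI counts per gene and cell barcode, which the authors made with Cell Ranger 6.0 on the mouse build GRCm38/mm10. The study also removed ambient RNA and doublets in its own analysis, and the deposited counts carry neither step.

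Cells with under 10% mitochondrial UMIs, 3000 to 50000 UMIs and 2000 to 5000 genes were kept, and the cells with the highest Scrublet scores were removed at 0.8% per 1000 cells (33 to 154 per library). Sums per library and dominant hormone were tested with edgeR 4.0.16 (R 4.3.3; TMM, library as a block, quasi-likelihood test, Benjamini-Hochberg adjustment over 11646 genes). With 1 library per group, HH and WT were compared as log2 ratios of CPM with exact conditional binomial 95% intervals, over genes with a mean of at least 50 CPM. These intervals, from 34115759 to 71791887 UMIs of insulin-dominant cells per library, cover counting error only. Python 3.11.15 and scanpy 1.11.5 were used, and DESeq2 1.42.0 was an alternative. The fit and the intervals were tested on simulated data.

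Named genes were the 3 members with the highest and the 3 with the lowest log2 fold change among those called per hormone group, the 5 highest and 5 lowest ratios per diet, and the highest level per complex, and the paralogue sets of Atp5g1, Cox4i1, Cox6a1, Cox6b1, Cox7a2 and Cox8a. Sdhc, Sdhd and Cox7b2 were named after their values were seen. The members and all lists were chosen with earlier results of these data known. Alternatives were scaling, filters on cells and counts, limits on hormones and folds, and left-out libraries, and scaling without TMM, further uses of the ribosome-free and hormone-free scales and leaving out Cox6a2 were added after the data were seen. The values of 1 member that this rule names are not reported here. Cells with mixed hormones (11 to 42 per library) entered no comparison.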

Additional observations from a re-analysis of the deposited data

Results flagged for a closer look

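In insulin-dominant cells a few values of HH against WT lay on opposite sides of 0 in the 2 diets, each with its counting interval clear of 0. Ndufs7 had a log2 ratio of 0.075 on SCD and -0.112 on HFD, and Ndufa6 had -0.094 and 0.192. Of the 66 members with a mean of at least 50 CPM in both diets, 5 were of this kind (7.58%), beside 11.7% of all 1233 genes of that level. Without hormone and mitochondrially encoded genes in the denominator, 2 of the 5 were (3.03% of the 66), beside 9.16% of all genes. On that scale Ndufs7 was at 0.133 and -0.09, and Ndufa6 at -0.036 on SCD, with an interval across 0 (-0.095 to 0.023), and 0.215 on HFD. The summed ratio of complex IV was -0.0406 on SCD and 0.0552 on HFD, and both were above 0 (0.0172 and 0.0774) without hormone and mitochondrially encoded genes in the denominator. With 1 library per group and diet, no test of the change in sign was possible.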

How the results depend on the processing

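No paired analysis was possible because each group had 1 library, all numbered 1, so the labels pair nothing between HH and WT. Between hormone groups, where library was a block, the fit without it called 27 members for PP (10 higher, 17 lower) in place of 44. Leaving out 1 library gave 40 to 46 calls for glucagon, 39 to 44 for somatostatin and 35 to 48 for PP. Scaling to all UMIs without TMM called 69 members for glucagon and 77 for somatostatin, most of them higher, and turned Cox7b in somatostatin-dominant cells to 0.751. It also turned Cox6a1 to 0.424, 0.553 and 0.138 in glucagon-, somatostatin- and PP-dominant cells, and in somatostatin-dominant cells Cox5a to 0.255, Atp5g1 to 0.029, Sdhc to 0.215 and Sdhd to 0.482. Over the single genes recomputed, 743 values under an alternative stayed on their side, 29 moved by more than their interval, 26 lost their call, 10 gained one and these 8 reversed. For HH over WT, the following log2 ratios moved. Without hormone and mitochondrially encoded genes, the SCD median was 0.0906, and complexes I to V were at 0.1148, 0.0199, 0.1303, 0.0172 and 0.1014 (all 84 genes 0.088), so complexes II and IV reversed. Without ribosomal protein genes as well, the median was 0.0933 and the sums 0.1175, 0.0226, 0.133, 0.0199 and 0.1041 (all 0.0907). Median-of-ratios scaling gave 0.0984, 0.0035, 0.1139, 0.0008 and 0.085 (all 0.0716). A looser cell filter gave -0.0234 for complex IV and 0.041 for all, and leaving out Cox6a2 gave -0.0188 and 0.0365. On HFD the first scaling gave 0.145, 0.2546, 0.0774 and 0.1675 for complexes I, III, IV and V (all 0.1432), the second 0.1771, 0.0166, 0.2867, 0.1095 and 0.1996 for I to V (all 0.1753), and median-of-ratios 0.151, 0.2605, 0.0834 and 0.1735 for I, III, IV and V (all 0.1492). Cells under 5% mitochondrial UMIs gave 0.094 for I, 0.0402 for IV, 0.1299 for V and 0.1003 for all, no bounds on genes per cell 0.1121 for I and 0.1129 for all, and leaving out Cox6a2 0.1537 for IV and 0.1417 for all. HFD over SCD in WT was -0.0496 and -0.0506 under the first and second scalings, -0.0516 with median-of-ratios, -0.0668 with the looser filter, -0.074 with no bounds on genes and -0.0674 under 5% mitochondrial UMIs. In HH it was 0.034 under the second scaling, 0.02 with median-of-ratios, 0.0137 with the looser filter and 0.0199 without Cox6a2. The second scaling put 20 members at or above 0.25 on HFD in place of 13. At a log2 fold of 0.5, 0 members were higher on SCD and 1 on HFD. The cause of these shifts was not tested. Members under 50 CPM are not in the medians and counts of HH over WT, although some had intervals clear of 0, such as Atp5mpl on HFD at 0.397.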

Other observations

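Cox4i2 and Cox5a, chosen here after their values were seen, were higher in the cells under the hormone limit than in insulin-dominant cells. Cox4i2, the isoform of subunit IV known to respond to low oxygen, was at 47.5 CPM in WT and 23.9 in HH on SCD, and 69.3 in WT and 98.3 in HH on HFD, against at most 0.557 CPM in insulin-dominant cells. Its share of the UMIs of Cox4i1 and Cox4i2 there was 3.43% to 11.7%. Cox5a was at 265, 298, 361 and 356 CPM in these cells, against 69.3 to 78.2 CPM in insulin-dominant cells. Per 1000000 UMIs without hormone and mitochondrially encoded genes, Cox5a was at 284, 323, 380 and 376, against 195 to 224 in insulin-dominant cells. The summed ratio of HH to WT of the 84 genes in these cells was 0.08 on SCD and 0.21 on HFD (log2). These cells are a mixture whose makeup differed between libraries, with stromal markers at 3257, 1204, 1972 and 3794 CPM in the same order. The lymphocyte markers were at 3.0, 24.8, 251.9 and 15947 CPM. Of these, Igkc alone was at 143.6 CPM in WT HFD and 15730 in HH HFD. Cd79a and Ms4a1 were at 127.5 and 89.33 CPM in HH HFD, and Cd3e at 0 CPM there against 38.29 in WT HFD. The part of that makeup in these values was not tested.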
